A study of Homo sapiens with 7 samples.

Results

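The baseline of the experiment was set by 2 untreated human embryonic stem cell (hESC) lines, which are compared here by RNA sequencing of 1 library each out of 7 libraries in all. JMJD3c-hESCs at Day 0 carry a construct that expresses JMJD3c, the catalytic part of the histone H3 lysine 27 demethylase JMJD3 (KDM6B), when doxycycline (Dox) is given. JMJD3c mut-hESCs carry the same construct with a point mutation in the catalytic domain that removes the activity, and the library used was made without Dox. Both lines were stable puromycin-selected clones of SEES-3, a human embryonic stem cell line, with the reverse tetracycline transactivator and a piggyBac Tet-responsive cassette (followed by IRES-βgeo), and both grew in StemFit AK-03 on iMatrix-511. The other 5 libraries were JMJD3c-hESCs after 1, 2, 3 and 4 days of Dox at 1 µg/ml and the mutant line after 4 days of Dox. Each group was 1 library, so clone, culture and library preparation cannot be told apart, a difference has no replicate check, and no p-value is given. Values are FPKM, the fragments mapped to a transcript divided by its length and by the depth of the library, with the 95% interval that Cufflinks gave each gene. Of 22670 listed genes, 20187 lay on the chromosomes, and the 10051 with more than 4 FPKM in either untreated library are described. A gene was called when its FPKM differed more than 2-fold with more than 4 FPKM in the higher library, and log2 ratios are of the mutant line over Day 0 after adding 1 FPKM.

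Human embryonic stem cells of the primed kind are held undifferentiated by POU5F1, SOX2 and NANOG together with FGF and NODAL signalling. Polycomb proteins place trimethylation on lysine 27 of histone H3 at silent developmental genes, and JMJD3 removes it. Because the Tet-responsive promoter needs Dox, neither untreated line should express the transgene, so their difference describes the lines before Dox. The study itself gave Dox effects as ratios of cells with Dox over cells without.

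KDM6B, which reads the transgene as well as the native gene, stood at 3.45 FPKM at Day 0 and 2.40 in the untreated mutant line. It stood between 158 and 282 in JMJD3c-hESCs with Dox and at 454 in the mutant line with Dox. The untreated libraries were thus the low ones in both lines, as labelled. Estimated from the FPKM step of a single read, depth was about 3560000 reads at Day 0 and 7340000 in the untreated mutant line, and 4880000 to 6890000 in the others. A single read in a transcript of the median length, 3863 bases, was worth 0.0767 FPKM at Day 0 and 0.0372 in the mutant line, so the Day 0 library was the less precise. The deposited FPKM summed to 531482 at Day 0 and 459646 in the mutant line, and scaling both to the same sum would raise each ratio by a factor of 1.16, a log2 shift of 0.209 that is smaller for genes of low FPKM, since 1 FPKM is added.

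Both lines carried the markers of undifferentiated hESCs. POU5F1, the octamer-binding core factor on chromosome 6 (31132119 to 31148508, hg19), stood at 841 FPKM at Day 0 and 716 in the mutant line. SOX2, its partner factor, stood at 136 and 99.6 FPKM, and NANOG at 108 and 109. LIN28A, which blocks let-7 processing, stood at 485 and 530 FPKM, DNMT3B, a de novo DNA methyltransferase, at 404 and 369, and TDGF1, the NODAL coreceptor, at 224 and 206. None of the 6 was called, where 2.78% of all genes were called higher in the mutant line and 7.01% at Day 0. Their summed FPKM was 2198 at Day 0 and 2028 in the mutant line. The intervals were nevertheless apart for POU5F1, SOX2, LIN28A and DNMT3B, with LIN28A the higher in the mutant line and the other 3 at Day 0. Most of the defining markers of other cell types were under 4 FPKM in both lines, with MIXL1, COL1A1 and COL1A2 as the exceptions. Of 6 mesendoderm markers, only MIXL1 passed 4 FPKM (4.43 at Day 0 and 6.35 in the mutant line), and the summed FPKM was 5.235 and 8.51. CER1, a secreted NODAL antagonist, was listed at 0 at Day 0 and at 1.62 in the mutant line, far under the 34.0 to 134 FPKM of JMJD3c-hESCs on Days 2 to 4. The 4 neuroectoderm markers summed to 2.225 and 1.068 FPKM and the 3 trophoblast markers to 0 and 0.1896, with SOX1, NEUROD1, CGA and PSG1 at 0 in both lines. The 5 mesenchymal markers summed to 30.74 FPKM at Day 0 and 16.73 in the mutant line, all but a trace of it from COL1A1 and COL1A2, while DCN and LUM were at 0 in both lines. The longer lists for these cell types also hold less specific genes that were high in both lines. Mesenchymal genes included SPARC (168 and 154 FPKM), TAGLN (116 and 114) and THY1 (118 and 76.1), and neuroectoderm genes TUBB3 (222 and 180) and NES (106 and 85.5). Trophoblast and amnion genes included KRT8 (466 and 298, each above its own interval), KRT18 (170 and 107) and TFAP2C (24 and 15.6), and mesendoderm genes FGF8 (13.8 and 8.98). The 3 trophoblast and amnion genes over 4 FPKM had a median log2 ratio of -0.64, or -0.37 after GC content and length, and none was called. Both mutant libraries lay below all JMJD3c libraries in 2 of them.

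COL1A1, a chain of type I collagen, stood at 11.3 FPKM at Day 0 (95% interval 4.05 to 18.7) and 4.18 in the mutant line (2.84 to 5.62), and at 6.56 to 10.2 in JMJD3c-hESCs with Dox and 7.54 in the mutant line with Dox. The Day 0 value was 2.71 times that of the mutant line, but the intervals overlapped, and the mutant line with Dox lay inside the range of the JMJD3c libraries. COL1A2, which encodes the partner chain, stood at 19.4 and 12.5 FPKM without Dox, and at 12.5 in the mutant line with Dox against 23.2 to 28.4 in JMJD3c-hESCs with Dox. Here both mutant libraries lay under every JMJD3c library. PRAC1, a small posterior gene beside the HOXB cluster on chromosome 17 (46799084 to 46799884, hg19), stood at 56.2 FPKM at Day 0 and 19.8 in the mutant line, followed by 37.5, 24.0, 14.5 and 2.27 on Days 1 to 4 of JMJD3c and 10.4 in the mutant line with Dox. It was lower in the Dox libraries of either line, and its Day 0 FPKM lay above its own interval (16.1 to 51.3). That interval overlapped the one of the untreated mutant line (5.69 to 20.6). The longest transcript of PRAC1 is 382 bases, and its log2 ratio was -1.46. Genes of up to 500 bases had a median of -1.32, with 76.0% called higher at Day 0, so PRAC1 was near its length class. In bulk libraries, fewer cells of a type and less RNA per cell cannot be told apart.

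Most genes were level between the untreated lines. Of the 10051 genes, 7588 (75.5%) lay within 1.5-fold. The most level genes over 100 FPKM were ARF3, a Golgi GTPase (143 FPKM in both), EIF4A3, a helicase of the exon junction complex (118 in both), FDFT1, the squalene synthase (245 in both), FLNA, an actin crosslinker (172 in both), and QARS, the glutaminyl-tRNA synthetase (132 in both). The median log2 ratio was -0.053, the interquartile range ran from -0.40 to 0.28, and 90% of the ratios, from the 5th to the 95th percentile, lay between -1.05 and 0.72. Higher calls in the mutant line numbered 279 (2.78% of the genes), and higher calls at Day 0 numbered 705 (7.01%). The share of calls that were higher in the mutant line was therefore 28.4%, but it was 53.6% (556 against 481) with both libraries scaled to the same FPKM sum. With the added condition that the Cufflinks intervals did not overlap, 114 (1.13%) and 231 (2.3%) remained, and another 1034 genes had intervals apart without reaching the 2-fold ratio. Across these genes the log2 FPKM of both untreated libraries gave Pearson r = 0.932, against 0.976 for the mutant line without and with Dox and 0.959 for JMJD3c-hESCs at Days 0 and 1. The interquartile width of the log2 ratio was 0.681 between the untreated lines, 0.346 within the mutant line and 0.455 between Days 0 and 1, and calls within a line were fewer. The mutant line had 122 genes (1.25%) higher with Dox and 149 (1.53%) higher without, and JMJD3c-hESCs had 355 (3.48%) higher at Day 1 and 333 (3.27%) at Day 0. By correlation, width and calls together, the untreated libraries differed more from each other than either did from its own nearest Dox library.

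**Figure D1:**
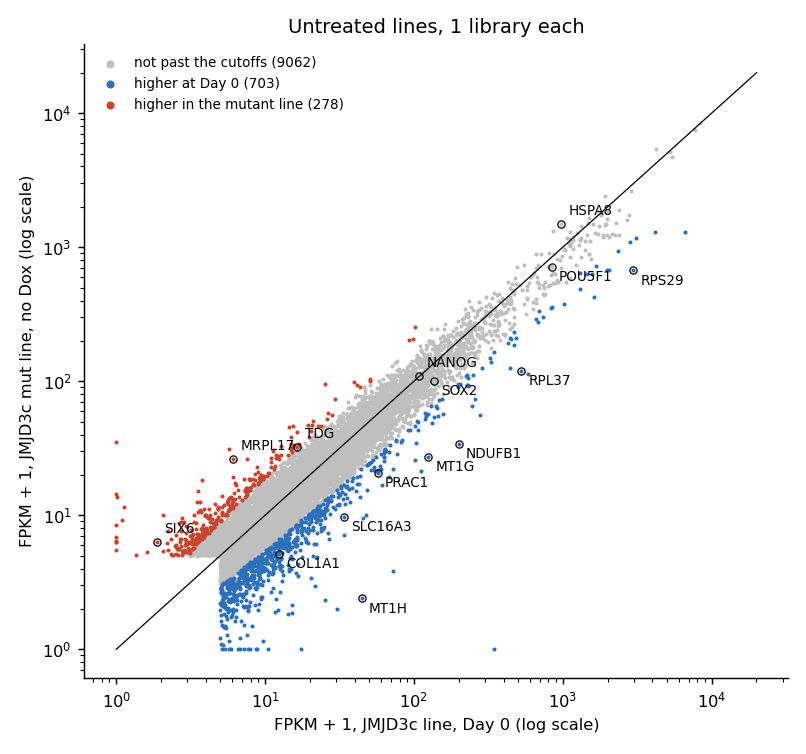
FPKM plus 1 at Day 0 (x axis) against FPKM plus 1 in the untreated mutant line (y axis), both on log10 axes with a diagonal line of equality, for 10043 genes over 4 FPKM in either library, without chromosome Y genes and XIST. Called genes are coloured, 278 above the diagonal and 703 below it, and POU5F1, SOX2 and NANOG sit close to the diagonal, while MT1H, NDUFB1 and RPS29 lie far below it.

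Regulators of the stem cell state stayed under the 2-fold rule. None of 10 core pluripotency factors and none of 28 pluripotency associated genes over 4 FPKM was called. Of all genes, 2.78% were called higher in the mutant line and 7.01% at Day 0, shares at which lists this short hold few calls. Of the 10 core factors, 8 were lower in the mutant line. Both mutant libraries lay below all JMJD3c libraries in 4 of the 10, against 15.5% of all genes, and above in 0. For the 28 associated genes these counts were 3 and 4. The core factors had a median log2 ratio of -0.25, against -0.053 for all genes. With FPKM scaled to the same sum it was -0.042, against 0.14 for all genes. The associated genes had a median of -0.038, or 0.17 under that scaling. L1TD1, an RNA-binding protein of pluripotent cells, stood at 239 FPKM at Day 0 and 357 in the mutant line. It lay between 198 and 215 in JMJD3c-hESCs with Dox and at 318 in the mutant line with Dox, so both mutant libraries were above all 5 JMJD3c libraries. ZSCAN10, a zinc finger factor of the pluripotency network, stood at 107 and 79.5 FPKM. With Dox it was 76.1 in the mutant line against 85.6 to 110 in JMJD3c-hESCs, and both mutant libraries were the lowest. Of 14 naive state genes, 13 were not over 4 FPKM, and NR5A2, a nuclear receptor, was at 5.98 and 8.98. Of 26 mesendoderm genes, 21 were not over 4 FPKM and none of the other 5 was called.

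Of 24 neuroectoderm genes, 8 were over 4 FPKM and 2 of them were called, 1 in each direction. Of all genes, 2.78% were called higher in the mutant line and 7.01% at Day 0. SIX6, an eye field homeobox factor (chromosome 14, 60975669 to 60979568), stood at 0.870 FPKM at Day 0 (0.202 to 1.61) and 5.27 in the mutant line (3.71 to 6.74). In the Dox libraries it was 1.16 to 2.02 in JMJD3c-hESCs and 2.90 in the mutant line, so both mutant libraries lay above the other 5. ZIC4, a zinc finger factor, stood at 6.22 FPKM at Day 0 (0.408 to 12.1) and at 0.0826 to 0.876 in the other 6 libraries. Day 0 was thus the high library, but its wide interval overlapped that of the untreated mutant line (0 to 2.90). The entry also overlaps ZIC1.

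Calls among signalling genes were few, and their shares higher at Day 0 (7.14% for NODAL, 7.69% for BMP, 4.55% for WNT, 0 for FGF) were near or under the 7.01% of all genes. Of 17 FGF and ERK feedback genes, none was called. DUSP6, a phosphatase that ERK induces, came nearest, with 45.2 FPKM at Day 0 (34.1 to 56.2) and 89.1 in the mutant line (76.2 to 102), a ratio of 1.97. JMJD3c-hESCs reached 37.4 on Day 1 and 78.1 to 117 on Days 2 to 4, so the lines overlapped. Of 14 NODAL pathway genes, 1 was called: SMAD3, a receptor-activated transducer, stood at 15.3 FPKM at Day 0 and 6.99 in the mutant line with overlapping intervals. Of 13 BMP genes, SMAD6, an inhibitor of the pathway, was called at 4.21 against 1.57 FPKM, and of 22 WNT genes, APC, which marks β-catenin for destruction, at 2.44 against 7.72 and TCF7, a β-catenin partner, at 5.86 against 2.46. The intervals of SMAD6, APC and TCF7 overlapped as well. The ligand NODAL was at 68.2 and 55.3 FPKM, the transducer SMAD2 at 45.3 and 42.4, and CTNNB1, which encodes β-catenin, at 151 and 196. The median log2 ratios were -0.11 for NODAL, -0.042 for BMP, -0.11 for WNT and -0.086 for FGF, close to that of all genes. All 4 turned positive with FPKM scaled to the same sum, as did the median of all genes, at 0.14.

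Polycomb and H3K27 enzymes, the machinery that the experiment acts on, had 26 members over 4 FPKM, of which none was called higher in the mutant line (2.78% of all genes) and 3 at Day 0 (7.01% of all genes). RING1, a ubiquitin ligase of the Polycomb repressive complex 1, stood at 14.5 FPKM at Day 0 (9.62 to 19.2) and 5.28 in the mutant line (3.27 to 7.15). JMJD3c-hESCs with Dox lay at 10.4 to 14.1 and the mutant line with Dox at 6.24, so the lines did not overlap. CBX7, a reader of the H3K27 mark, was at 7.69 and 1.83 FPKM, and PHC3, a Polyhomeotic subunit, at 7.27 and 3.41, both with overlapping intervals. In JMJD3c-hESCs with Dox CBX7 lay at 1.53 to 3.87 and PHC3 at 3.12 to 7.57, so for both the lines overlapped. The more abundant members JARID2 (100 and 97.5 FPKM), PHC1 (99.6 and 93.8), RBBP4 (118 and 149) and RBBP7 (82.1 and 96.7) were not called. Among 12 DNA methylation enzymes, TDG, a glycosylase of active demethylation, was the only one called, at 15.5 FPKM at Day 0 (10.5 to 20.6) and 31.5 in the mutant line (27.2 to 35.7). It stood at 19.3 to 25.7 in JMJD3c-hESCs with Dox and 31.0 in the mutant line with Dox, where both mutant libraries were the highest. DNMT1, the maintenance methyltransferase, was at 41.9 and 39.8 FPKM, and DNMT3A at 74.0 and 63.7.

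Heat shock and chaperone genes were higher in the mutant line, although by less than the 2-fold rule. The 21 members had a median log2 ratio of 0.32, which was 0.24 after the median of genes of like GC content and length was subtracted. In 15 of the 21, both mutant libraries lay above all 5 JMJD3c libraries, against 15.9% of all genes over 4 FPKM, and in 2 they lay below, against 15.5%. HSP90AA1, an inducible cytosolic HSP90, stood at 655 to 677 FPKM across the 5 JMJD3c libraries and at 888 without and 1036 with Dox in the mutant line. HSPA8, a constitutive HSP70, stood at 976 and 1480 FPKM in the untreated lines, with 818 to 1354 in JMJD3c-hESCs with Dox and 1663 in the mutant line with Dox. HSPD1, the mitochondrial HSP60, stood at 515 to 555 in JMJD3c-hESCs and at 741 and 720 in the mutant line, so for all 3 genes the lines did not overlap. HSPB1, a small heat shock protein, went the other way, at 114 to 141 FPKM in JMJD3c-hESCs against 56.2 without and 70.4 with Dox in the mutant line, and was the only member called.

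Ribosomal protein and respiratory chain genes were lower in the mutant line. Of 86 cytosolic ribosomal protein genes, 84 were over 4 FPKM, and 22 of them (26.2%, against 7.01% of all genes) were called higher at Day 0 and none in the mutant line. All 22 had intervals apart. The median log2 ratio was -0.67, or -0.46 with FPKM scaled to the same sum, where that of all genes was 0.14. It was -0.48 for the mutant line with Dox over JMJD3c-hESCs at Day 1. Within the JMJD3c line it was -0.27 for Day 1 over Day 0, against -0.046 for all genes. In 52 of the 84 both mutant libraries lay below all JMJD3c libraries, against 15.5% of all genes. RPS29, a small subunit protein, stood at 2967 FPKM at Day 0 and 671 in the mutant line, with 1831, 2051, 2020 and 1749 on Days 1 to 4 and 742 in the mutant line with Dox. RPL38, of the large subunit, stood at 1617 and 421, and RPL31 at 2040 and 676. Each of these was lower in both mutant libraries than in any JMJD3c library. Ribosomal protein genes have many processed pseudogene copies, so the split of their reads is uncertain. The reference gene RPLP0, of the ribosomal stalk, stood at 1507 and 894 FPKM, while GAPDH was at 2866 and 2647 and ACTB at 1959.5 and 1494.

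Of 76 nuclear-encoded subunits of oxidative phosphorylation, 12 (15.8%) were called higher at Day 0, all 12 with intervals apart, and none in the mutant line. Their median log2 ratio was -0.41, or -0.20 with FPKM scaled to the same sum. It was -0.35 for the mutant line with Dox over JMJD3c-hESCs at Day 1, and -0.14 for Day 1 over Day 0. Both mutant libraries lay below the JMJD3c libraries in 43 of the 76, again against 15.5%. NDUFB1, a subunit of complex I (chromosome 14, 92582466 to 92588261), stood at 198 FPKM at Day 0 (141 to 256) and 33.1 in the mutant line (16.3 to 49.8). It was 137 to 235 in JMJD3c-hESCs with Dox and 50.9 in the mutant line with Dox, and the lines did not overlap. ROMO1, a small inner membrane protein (chromosome 20, 34287194 to 34288906, overlapping NFS1), stood at 278 and 54.8 FPKM, with 163 to 204 and 37.6 in the Dox libraries. Of the 13 genes encoded in mitochondrial DNA, 3 (23.1%, against 7.01% of all genes) were called, all higher at Day 0. They were the shortest: MT-ATP8 (207 bases) at 6645 and 1303 FPKM, MT-ND4L (297 bases) at 4165 and 1305, and MT-ND3 (346 bases) at 2831 and 1096. The median log2 ratio of the 13 was -0.22, against -0.053 for all genes. With FPKM scaled to the same sum it was -0.0054, against 0.14 for all genes. Of 75 mitochondrial ribosomal protein genes, 2 were called higher in the mutant line and 3 at Day 0, against 2.78% and 7.01% of all genes. Their median was -0.20, or -0.0020 with FPKM scaled to the same sum. It was 0.093 for the mutant line with Dox over JMJD3c-hESCs at Day 1, and -0.22 for Day 1 over Day 0.

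In both groups the log2 ratio moved with the length of the coding sequence, with Spearman correlations of 0.515 over the 84 ribosomal protein genes and 0.611 over the 76 oxidative phosphorylation genes, whose median coding lengths were 468 and 474 bases. The genes share 2 libraries, so these correlations are descriptions. After the median of genes of like GC content and coding length was subtracted, the list medians were -0.44 and -0.19, closer to 0 than the -0.67 and -0.41 of the deposited values. The part of coding length in these differences was not tested.

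**Figure D2:**
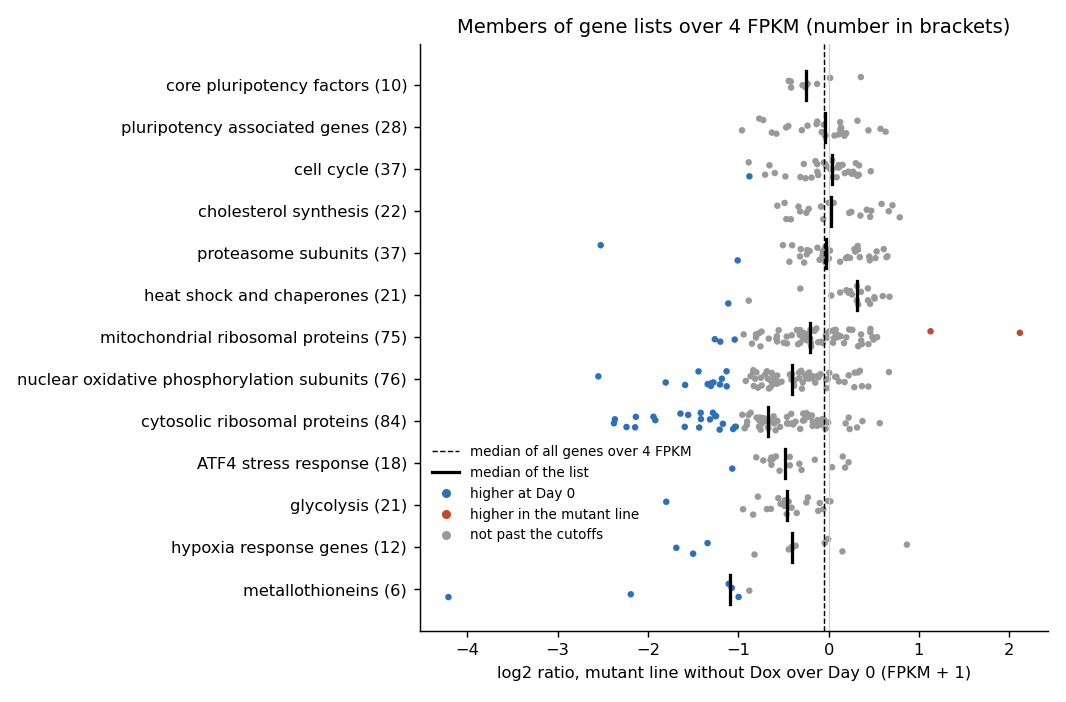
The log2 ratio of the untreated mutant line over Day 0 (x axis, FPKM plus 1) of each gene over 4 FPKM in 13 lists (y axis), with a bar at the median of the list, a dashed line at the median of all genes and called genes in colour. The chaperones lie to the right, with a median of 0.32, and cytosolic ribosomal proteins (-0.67), oxidative phosphorylation subunits (-0.41) and metallothioneins (-1.09) to the left.

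Metallothioneins, small cysteine-rich proteins that bind zinc and copper, had the lowest median log2 ratio of the lists, -1.09 over the 6 of 10 genes that were over 4 FPKM. In all, 5 of the 6 (83.3%, against 7.01% of all genes) were called higher at Day 0, 2 of them with intervals apart, as had 2.3% of all genes. The 6 genes are short, with a median longest transcript of 824.5 bases. Among all genes of 500 to 1000 bases, 23.9% were called higher at Day 0. The median of the 6 became -0.88 after GC content and length, and -0.69 after GC content and coding length. Zinc induces these genes through metal response elements, short sites in their promoters, with the core TGCACNC or TGCGCNC. The 250 bases before the start of the 3 called members that the promoter table holds are shown so that the sites can be seen, as RefSeq gives them on GRCh38.p14, with each core match on either strand in capitals.
MT1H, chr16:56669564-56669813, plus strand: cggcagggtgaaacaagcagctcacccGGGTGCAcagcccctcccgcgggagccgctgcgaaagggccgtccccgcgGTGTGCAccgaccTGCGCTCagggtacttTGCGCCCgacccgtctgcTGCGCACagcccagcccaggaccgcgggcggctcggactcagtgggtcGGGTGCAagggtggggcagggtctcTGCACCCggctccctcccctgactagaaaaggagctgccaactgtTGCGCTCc
MT2A, chr16:56608334-56608583, plus strand: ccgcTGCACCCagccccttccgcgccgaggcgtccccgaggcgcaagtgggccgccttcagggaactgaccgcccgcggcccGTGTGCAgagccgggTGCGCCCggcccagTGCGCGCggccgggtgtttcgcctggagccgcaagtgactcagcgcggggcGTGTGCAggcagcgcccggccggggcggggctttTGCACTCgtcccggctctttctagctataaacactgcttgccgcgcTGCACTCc
MT1X, chr16:56682220-56682469, plus strand: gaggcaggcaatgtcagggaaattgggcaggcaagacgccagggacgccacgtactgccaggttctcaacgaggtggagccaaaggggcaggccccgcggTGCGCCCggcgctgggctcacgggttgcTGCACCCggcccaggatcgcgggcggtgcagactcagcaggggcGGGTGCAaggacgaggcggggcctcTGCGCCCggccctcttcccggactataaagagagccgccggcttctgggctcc
MT1H held 8 matches (5 forward and 3 reverse), MT2A held 7 (5 and 2) and MT1X held 4 (3 and 1), none of them overlapping. Of 35116 promoters of the same length, 24.8% held at least 1 match, 0.37% at least 4, 0.0313% at least 7 and 0.0171% at least 8. A match describes the letters and does not show binding.

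MT1H, with the most matches (chromosome 16, 56703726 to 56705041, hg19), stood at 43.5 FPKM at Day 0 (20.3 to 66.6) and 1.40 in the mutant line (0 to 4.49), where 3 reads would be worth 0.822. JMJD3c-hESCs with Dox lay at 10.5 to 19.6 and the mutant line with Dox at 3.20, so both mutant libraries were the lowest and Day 0 was the highest. MT1G stood at 123 FPKM at Day 0 and 26.2 in the mutant line, with 153 on Day 1, 19.5 on Day 4 and 38.3 in the mutant line with Dox. Here the lines overlapped, since Day 4 lay under both mutant libraries. MT2A, the most widely expressed metallothionein, stood at 17.8 and 7.96 FPKM and MT1E at 43.1 and 21.1, with intervals that overlapped. With Dox, MT2A was 16.9 to 26.9 in JMJD3c-hESCs and 9.05 in the mutant line, and MT1E was 22.2 to 60.4 and 11.9, so for both genes the mutant libraries were the lowest. MT1X stood at 25 and 11.1 FPKM, but its Dox libraries ran from 3.52 to 12.3 in JMJD3c-hESCs and reached 2.52 in the mutant line. Day 0, by which MT1X was called, was thus the highest library. MT1F, at 24.5 and 12.9 FPKM, was not called. The genes are near-identical neighbours, and the split of reads among them is uncertain.

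Among glycolysis and hypoxia response genes, Day 0 was mostly the higher untreated library, with few calls. The 21 glycolysis genes had a median log2 ratio of -0.46, which was -0.25 after GC content and length, and both mutant libraries lay below all JMJD3c libraries in 5 of them, against 15.5% of all genes. SLC16A3, the lactate exporter MCT4, was the 1 member called (4.76%, under the 7.01% of all genes), at 32.8 FPKM at Day 0 (23.8 to 41.7) and 8.72 in the mutant line (4.67 to 12.8). JMJD3c-hESCs gave 30.7 on Day 1 and 4.45 to 12.1 on Days 2 to 4, and the mutant line with Dox 6.35, so Days 0 and 1 were the high libraries and not the line as a whole. ALDOA, the aldolase of glycolysis, stood at 908 and 565 FPKM, and with Dox at 630 to 792 in JMJD3c-hESCs and 481 in the mutant line, where the lines did not overlap. LDHB, a lactate dehydrogenase subunit, was level at 872 and 884.

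Of 12 hypoxia response genes, 3 were called higher at Day 0 (25%, against 7.01% of all genes), 1 of them with intervals apart, and the median log2 ratio was -0.41, or -0.53 after GC content and length. Both mutant libraries lay below all JMJD3c libraries in only 1 of the 12, against 15.5% of all genes, so the lines as a whole mostly overlapped. VEGFA, the endothelial growth factor, stood at 16.5 and 5.20 FPKM, PFKFB4, which makes the activator of phosphofructokinase, at 13 and 4.51, and NDRG1, a hypoxia-induced gene, at 5.13 and 0.904. The intervals of VEGFA and NDRG1 overlapped between the untreated lines, and that of NDRG1 at Day 0 was wide (0.799 to 20.4). BNIP3, a mitophagy receptor, stood at 122 and 68.5 FPKM and was not called. In all 4 genes, JMJD3c-hESCs on Days 1 to 4 lay under Day 0, with BNIP3 falling from 93.1 on Day 1 to 27.6 on Day 4. All of them but BNIP3, and DDIT4 as well, were named because they were called higher at Day 0. That choice itself raises the share with Day 0 above the later days. DDIT4, an inhibitor of mTORC1 and the 1 call among 18 ATF4 stress response genes, ran alike, with 89.8 FPKM at Day 0 and 42.4 in the mutant line. It reached 52.7 on Day 1, 11.3 to 11.9 on Days 2 to 4 and 9.08 in the mutant line with Dox, so each untreated library was above the Dox libraries of its own line. SLC2A3, a glucose transporter, was level at 213 and 212.

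**Figure D3:**
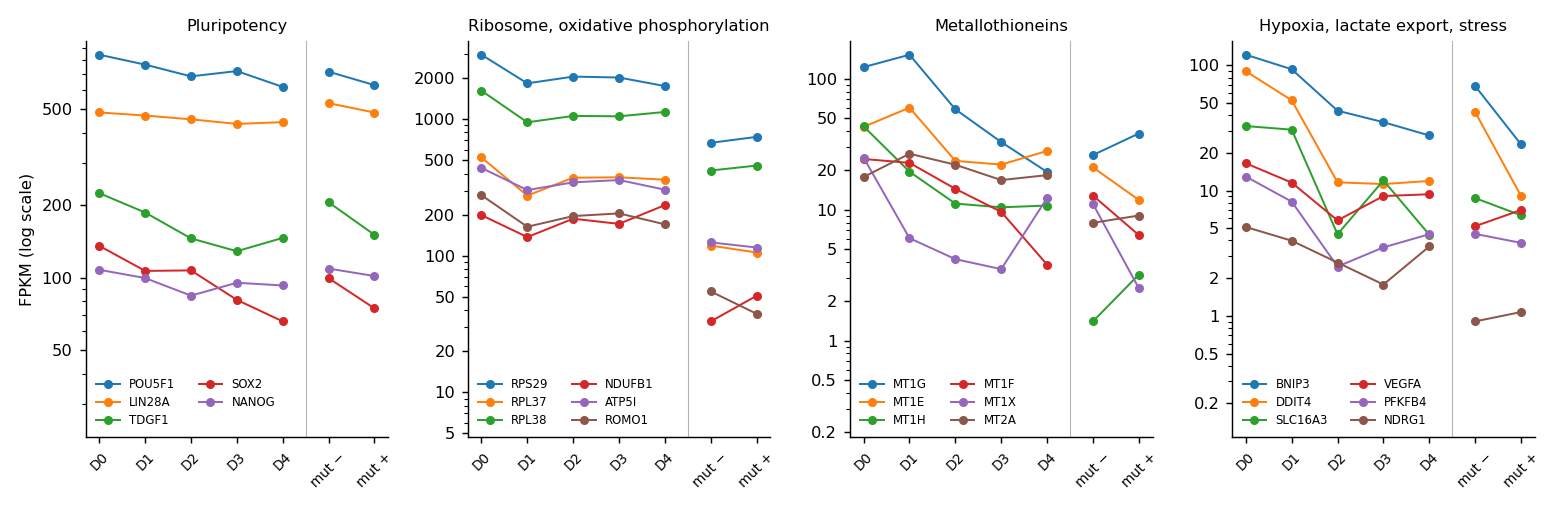
FPKM in each of the 7 libraries (x axis, D0 to D4 for JMJD3c-hESCs on Days 0 to 4, then the mutant line without and with Dox), on log10 y axes, with 1 library a point and lines joining the points of a gene within a line. POU5F1, LIN28A and NANOG lie within the 2-fold rule in both mutant libraries, RPS29, RPL38, NDUFB1 and ROMO1 lie lower in both mutant libraries than in any JMJD3c library, and BNIP3, DDIT4 and SLC16A3 also drop within the JMJD3c line.

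Interferon response genes had 14 of 28 members over 4 FPKM, 1 called in each direction, against 2.78% of all genes in the mutant line and 7.01% at Day 0. IFITM2, an interferon-induced membrane protein, stood at 100 FPKM at Day 0 and 251 in the mutant line (205 to 298), with intervals apart. Its neighbours went the other way, IFITM1 from 565 at Day 0 to 318 and IFITM3 from 328 to 177. In each of these 3 genes the mutant libraries lay on 1 side of all JMJD3c libraries. They are near-identical and IFITM2 overlaps IFITM1 on chromosome 11, so the split among them is uncertain and the summed FPKM is given too, with 993.2 at Day 0, 806.8 to 966.3 in JMJD3c-hESCs with Dox, and 745.9 and 584.3 in the mutant line. The sum was thus lower in both mutant libraries, and IRF7, an interferon regulatory factor called at 4.06 and 1.85 FPKM, had overlapping intervals.

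Cell cycle, cholesterol, p53 and adhesion genes had few calls, to be read against the 2.78% of all genes higher in the mutant line and 7.01% at Day 0. Of 37 cell cycle genes 1 was called, CDKN1A, the p53-induced inhibitor, at 7.60 FPKM at Day 0 and 3.68 in the mutant line with overlapping intervals. PCNA, the replication clamp, stood at 189 and 195 FPKM, CCNB1 at 203 and 207, and MCM4, of the replicative helicase, at 148 and 185. The median log2 ratio of the cell cycle genes was 0.034, and both mutant libraries lay above all JMJD3c libraries in 11 of the 37 (15.9% of all genes) and below in 4. None of 22 cholesterol synthesis genes was called. HMGCS1, an early enzyme of that pathway, stood at 104 FPKM at Day 0 and 157 in the mutant line, within the 121 to 180 of JMJD3c-hESCs with Dox. Of 16 p53 targets, 2 (12.5%) were called higher at Day 0, CDKN1A and FDXR, a ferredoxin reductase at 25.2 and 12.3 FPKM. The list had a median of -0.25, with 14 of the 16 lower in the mutant line, as were 5445 of all 10051 genes. Of 20 extracellular matrix and adhesion genes, only ITGAV, an integrin subunit, was called, at 5.13 against 10.8 FPKM, and it ranged from 8.99 to 14.5 in JMJD3c-hESCs with Dox. The median of that list was -0.24, and both mutant libraries lay below all JMJD3c libraries in 8 of the 20, against 15.5% of all genes. With FPKM scaled to the same sum, the medians of the p53 and adhesion lists were -0.044 and -0.039, against 0.14 for all genes.

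Across all genes, the ratio moved with transcript length and base composition. By the longest GENCODE transcript, 25 genes of up to 500 bases had a median log2 ratio of -1.32 and 76.0% were called higher at Day 0. The 280 genes of 500 to 1000 bases had a median of -0.49 and 23.9% such calls. Over 8000 bases the median was 0.11, with 4.76% called higher in the mutant line and 3.34% at Day 0. The order of the lines thus turned with length over all genes, but not among genes of high GC content. Of the genes over 8000 bases, those of 50 to 60% GC had a median of -0.19 and those over 60% one of -0.34. Those of up to 40% GC had one of 0.32. By coding length, 187 genes of up to 300 bases had a median of -0.49 and 1413 genes over 3000 bases one of 0.019. Without ribosomal protein, respiratory chain and mitochondrial ribosomal protein genes, 158 genes of up to 300 coding bases still had a median of -0.39, with 19% called higher at Day 0.

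By GC content of the longest transcript, 358 genes of up to 36% had a median log2 ratio of 0.33, with 7.54% called higher in the mutant line and 3.07% at Day 0. The 461 genes over 64% GC had a median of -0.46, with 0.217% and 18.2%. The median GC content was 41.2% among genes higher in the mutant line, 56.1% among genes higher at Day 0 and 47.5% among genes called in neither direction. Over 9961 genes the Spearman correlation of the log2 ratio was -0.496 with GC content and 0.214 with length, which were correlated with each other at -0.305. The same GC correlation was -0.364 for the mutant line with Dox over JMJD3c-hESCs at Day 1, 0.0383 within the mutant line and -0.185 for Day 1 over Day 0. It was therefore strongest in both pairs across the lines, weaker but present between Days 0 and 1 of the JMJD3c line, and near 0 within the mutant line. Library and line cannot be told apart here. After subtraction of the medians by GC content and length, 211 genes were called higher in the mutant line and 542 at Day 0, and the interquartile width of the log2 ratio was 0.539.

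**Figure D4:**
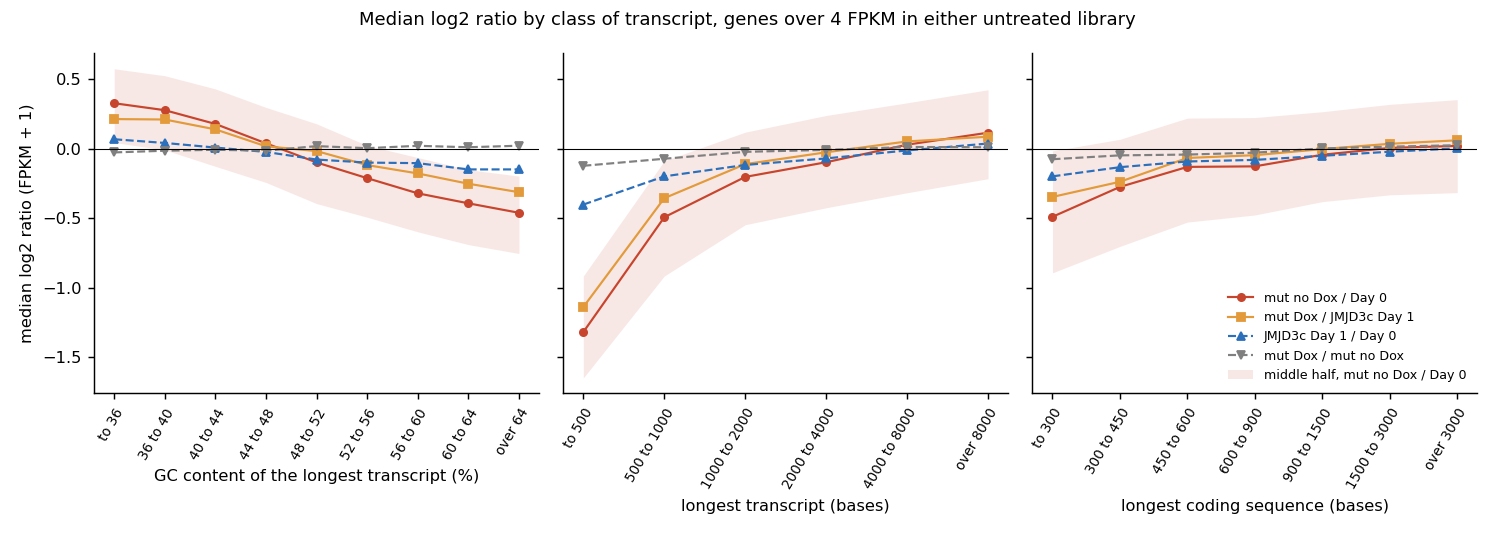
Median log2 ratio (y axis) of genes over 4 FPKM by GC content in percent, transcript length and coding length in bases (x axes), for the untreated lines (circles, with the interquartile range shaded), the mutant line with Dox over Day 1 (squares), Day 1 over Day 0 and the mutant line with over without Dox (triangles up and down). In the untreated lines the medians run from 0.33 down to -0.46 with GC content and from -1.32 up to 0.11 with transcript length. With GC content, those of Day 1 over Day 0 run from 0.067 down to -0.15, and those of the mutant line with over without Dox stay near 0.

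Chromosomes differed along the same lines. Of the nuclear chromosomes, 19 had the lowest median log2 ratio, -0.33, with 14.7% of its genes called higher at Day 0, followed by chromosome 17 at -0.23 and chromosome 22 at -0.20. Chromosome 13 had the highest median, 0.20. After GC content and length these became -0.030 for chromosome 19, -0.027 for chromosome 17 and 0.10 for chromosome 13.

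By level, calls were most frequent where FPKM was lowest. Among genes with a mean of up to 5 FPKM, 9.73% were called higher in the mutant line and 21.4% at Day 0, but many genes in this class passed the filter through the higher library alone, which raises the share called. Between 40 and 80 FPKM the shares were 0.754% and 2.60%. Over 640 FPKM no gene was called higher in the mutant line and 15% were higher at Day 0, among them RPS29, RPL38, RPL31 and MT-ATP8. The Cufflinks interval reached, in the median gene, 76.1% of the FPKM to either side at Day 0 and 48.7% in the mutant line in the lowest class, and 6.61% and 5.25% in the highest, so most low calls rested on wide intervals. Of the genes called, 68.1% of those higher in the mutant line and 61.0% of those higher at Day 0 had a mean under 10 FPKM, against 30.5% of the genes not called.

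**Figure D5:**
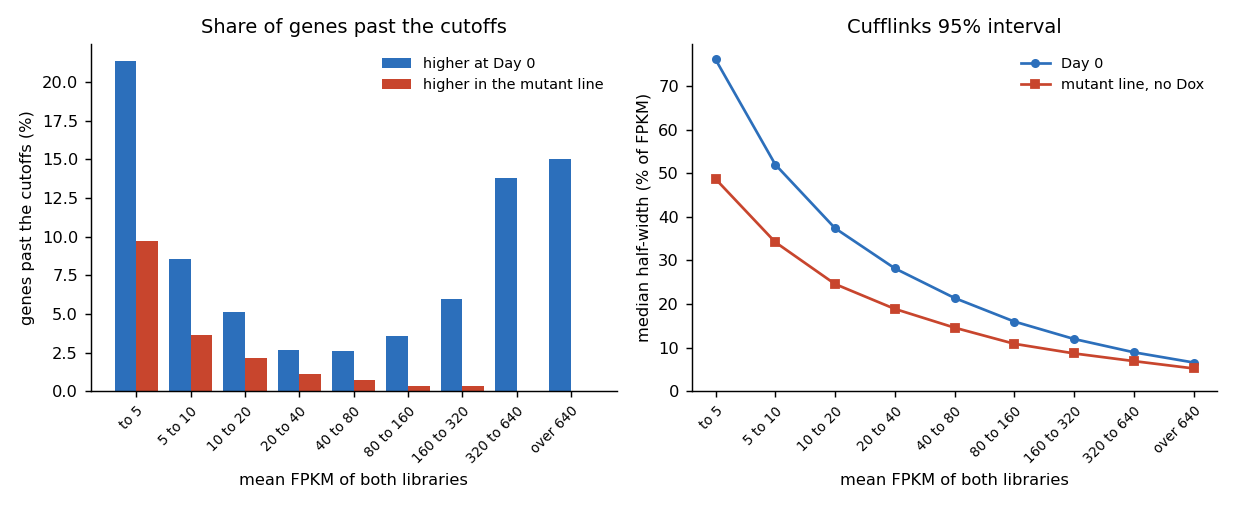
Left, percent of genes called (y axis) in each direction by the mean FPKM of both untreated libraries (x axis). Right, the median distance from the FPKM to the bounds of its Cufflinks interval, in percent of the FPKM (y axis), on the same classes. Calls go from 21.4% and 9.73% in the lowest class to 2.60% and 0.754% between 40 and 80 FPKM, and above 80 FPKM the share higher at Day 0 climbs again to 15% while the other does not.

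The Dox libraries hold the same 2 lines again, although Dox, the day and JMJD3c activity differ there, so they are no replicates. Between the mutant line with Dox and JMJD3c-hESCs at Day 1, which share no library with the untreated pair, 196 genes (1.95%) were higher in the mutant line and 638 (6.34%) at Day 1. Of the 279 genes higher in the untreated mutant line, 192 had the same direction there and 26 were called, which is 9.32% of the untreated list and 13.3% of the Dox list. Of the 705 genes higher at Day 0, 581 had the same direction and 183 were called, 26% and 28.7% of the lists. Over all 10051 genes, 49.3% were above and 50.7% below Day 1. Day 0 can also be set beside Days 1 to 4 of its own line. Of the 705 genes, 508 (72.1%) were higher at Day 0 than on any of Days 1 to 4, against 32.2% of all genes, and of the 279, 217 (77.8%) were lower than on any of them, against 21.7%. Since Day 0 had chosen these genes, the choice itself raises those shares, and they do not show that Day 0 stood apart. The mutant line with Dox lay below all of Days 1 to 4 in 359 of the 705 (50.9%, against 27.1% of all genes) and above all of them in 118 of the 279 (42.3%, against 28.0%).

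Of single genes higher in the mutant line, with intervals apart, UBA6 on chromosome 4 (68478370 to 68566897), an activating enzyme for ubiquitin and FAT10, stood at 6.61 FPKM at Day 0 and 25.1 in the mutant line. It was 11.8 to 14.4 in JMJD3c-hESCs with Dox and 18.9 in the mutant line with Dox, so the lines did not overlap. MRPL17, of the large mitochondrial ribosomal subunit (chromosome 11, 6702013 to 6704632), stood at 5.09 and 25.4 FPKM. Its other libraries were 4.41 to 17.7 in JMJD3c-hESCs and 29.0 in the mutant line, again without overlap. TTC26, an intraflagellar transport protein, stood at 1.24 and 6.66 FPKM and RPA3-AS1, an antisense RNA, at 1.77 and 8.57, both above every JMJD3c library in both mutant libraries. MPDZ, a multi-PDZ scaffold of tight junctions, stood at 1.06 and 9.04 FPKM but reached 12.9 in JMJD3c-hESCs on Day 2, and OSGIN2 stood at 2.66 and 11.7 but reached 11.2 on Day 4 of JMJD3c, so for these the lines overlapped. The other 4 of the 10 largest were AP000350.10, RP11-762I7.5, CTD-3074O7.11 and RP11-343C2.12, which each overlap other listed genes, so their reads are uncertain.

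Of single genes higher at Day 0, RP11-1035H13.3 (chromosome 16, 18799385 to 18812841) had the lowest log2 ratio among those with status OK and intervals apart, -4.24. It stood at 67.2 to 88.9 FPKM in the 5 JMJD3c libraries and at 2.81 and 5.81 in the mutant line, so the lines lay far apart, but the entry overlaps RPS15A and ARL6IP1. MORN1 stood at 13.3 FPKM at Day 0 and 0.842 in the mutant line, with 2.22 to 9.13 in JMJD3c-hESCs with Dox and 2.17 in the mutant line with Dox, so its lines were separate by a narrow gap. C6orf57, an assembly factor of respiratory complex II, stood at 10.8 and 1.37 FPKM and overlapped between lines, with 3.30 on Day 4 of JMJD3c against 4.71 in the mutant line with Dox. Others of the 10 were MT1H, NDUFB1 and ROMO1, described above, CLDND2, which was at 9.39 and 0 FPKM and at 0 on Days 1 and 4 of JMJD3c as well, and RP11-977G19.10 and CTD-2545M3.6, which overlap other genes.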

How the data were processed

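RNA was measured by 150-base single-end MiSeq sequencing of poly(A) libraries (NEBNext Ultra Directional). Per the labels and the study's methods, the authors aligned reads to hg19 with TopHat2 2.0.13 and made the deposited FPKM values, with 95% intervals, with Cufflinks 2.1.1; CASAVA 1.4 is named in the submitters' processing notes. No counts were used, so depth was estimated from the FPKM step of a single read, and gives the order of precision only. From the deposited FPKM, ratios were computed for genes over 4 FPKM in either library and called above 2 or below 0.5, the study's limits, and log2 ratios with a pseudocount of 1 (Python 3.11.15, pandas 2.3.3, numpy 2.4.6). Entries with the same identifier, symbol and position were matched between files. There was 1 library a group, so no test was run. Length, GC content and coding length came from the longest transcript or coding sequence of GENCODE release 44 lifted to hg19 (9961 and 9921 genes). Medians within 20 GC bins, or 10 GC by 5 length bins, were subtracted as alternatives. The scripts were tested on simulated data. The lists and members were chosen with earlier results of these data known. The genes named are called list members, up to 4 of the highest members a list, the 10 largest changes each way with status OK, intervals apart and transcripts of 300 bases or more, the 5 most level, and markers; 1 gene that the rule names is not reported here. Ribosomal protein, oxidative phosphorylation, mitochondrial and other family members were named after their values were seen. Alternatives were other FPKM limits, ratios, scalings, pseudocounts and corrections.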

Additional observations from a re-analysis of the deposited data

How the results depend on the processing

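Counts are given as higher in the mutant line and higher at Day 0, against 279 and 705. An FPKM limit of 1 gave 650 and 1354, a limit of 10 gave 128 and 385, a ratio above 4 gave 30 and 123, and intervals apart gave 114 and 231. Scaling to the same FPKM sum gave 556 and 481, and ratios with a pseudocount of 1 gave 178 and 562. A mean of at least 10 FPKM, chosen after seeing the data, gave 89 and 275. Median scaling, the removal of short and small RNA genes, and the subtraction of GC, length, or GC and length medians (those with length added after seeing the data) kept both counts within 1.5 times, at 211 to 330 and 542 to 684. More calls were higher at Day 0 under every alternative except scaling to the same sum. Of the 43 list medians, all 43 moved by more than 0.1 under that scaling, 21 under the GC subtraction, 24 under GC and length, 29 under GC and coding length (added after seeing the data), 4 with a pseudocount of 4, and none under median scaling or a pseudocount of 0.1. The ratio of every gene rises by the same factor under that scaling, and its log2 ratio by less where FPKM is low, since 1 FPKM is added. For the rest, the cause was not tested. No paired analysis was possible because each group was 1 library. The precision was limited by the Day 0 library, about 3560000 reads against 7340000, and 96 genes at Day 0 and 139 in the mutant line had an FPKM outside their own interval.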

Other observations

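Of all genes, 2.78% were called higher in the mutant line and 7.01% at Day 0, and both mutant libraries lay above all JMJD3c libraries in 15.9% and below in 15.5%, and the shares of large gene families can be read against these. C2H2 zinc finger genes, mostly transcriptional repressors, had 321 of 502 members over 4 FPKM, 21 called higher in the mutant line and 22 at Day 0, with a median log2 ratio of 0.098 that became 0.0039 after GC content and length. Both mutant libraries lay above all JMJD3c libraries in 45 of the 321 and below in 23. The share of the family called higher at Day 0 was 6.85%, near the 7.01% of all genes. The 21 of 321 called higher in the mutant line were a larger share than the 2.78% of all genes. Solute carriers had 138 of 332 members over 4 FPKM, with 9 higher in the mutant line and 7 at Day 0. Collagens had 16 of 44, with 1 and 3 called and both mutant libraries lowest in 10 of the 16. Their median of -0.53 became -0.16 after GC content and length. Replication-dependent histone genes, whose transcripts mostly lack a poly(A) tail, had 16 of 71 over 4 FPKM, with 2 and 6 called. None of 39 HOX genes and none of 380 olfactory receptor genes passed 4 FPKM in either line. Among 37 proteasome subunits, both mutant libraries were highest in 14 and lowest in 1, at a median log2 ratio of -0.028. Under scaling to the same sum it was 0.18, against 0.14 for all genes. The 2 called were the immunoproteasome subunits PSMB8, at 7.33 FPKM at Day 0 and 3.15 in the mutant line, and PSMB9, at 4.75 and 0. Keratins had 4 members over 4 FPKM, and in all 4 the mutant libraries were lowest, with KRT18 at 170 and 107 FPKM.

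Some entries carried a status other than OK. PAICS, an enzyme of purine synthesis, was listed at 0 in the untreated mutant line with a failed status, against 342 FPKM at Day 0 and 349 in the mutant line with Dox, and its call among the 705 rests on that value. LUZP6, PIGY and RSC1A1 had a low-data status and overlap other genes. LUZP6 ran from 0 to 69.3 FPKM over the 7 libraries and PIGY from 23.4 to 94.2.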
